A study of Mus musculus with 8 samples.

Results

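The Slc25 genes encode the mitochondrial solute carriers. They were taken as every gene of the deposited expression table whose symbol is Slc25a followed by a number, with Slc25a20 and the pseudogenes left out. The table lists 43 such genes among 23761 genes in all, and 35 of the 43 were tested among 10920 tested genes. GENCODE release M21 holds 46 genes by the same rule, and Slc25a41, Slc25a48 and Slc25a54 were not analysed here. Bone marrow-derived macrophages (BMDMs) were compared between 4 libraries of control mice (LysM, genotype LysM Cre/Cre) and 4 libraries of myeloid KLF2 knockout mice (K2KO, genotype LysM Cre/Cre with KLF2 flox/flox). All mice were 3 months old. By genotype both groups carried Cre, expressed from the lysozyme M gene of myeloid cells, on both alleles. Marrow of femur and tibia was grown in medium conditioned by L929 cells, a fibroblast line that secretes the macrophage growth factor M-CSF, and the library labels read vehicle in both groups. The comparison asks what the loss of KLF2, a zinc-finger transcription factor, does to macrophage expression. The 8 libraries are called LysM0 to LysM3 and K2KO0 to K2KO3 after the numbers of the table's columns, which give the genotype but not the mouse.

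Carriers of this family sit mostly in the inner mitochondrial membrane, where each moves a particular metabolite, nucleotide or cofactor between the cytosol and the matrix, often in exchange for another. They are encoded in the nucleus, imported by the TOM and TIM complexes, and share one fold built of repeats. In macrophages they link the citric acid cycle to cytosolic lipid and amino acid metabolism, and they supply phosphate and ADP to the ATP synthase.

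The targeted gene was examined first. Klf2, on chromosome 8, was at 44.1, 52.9, 64.7 and 72.8 FPKM (a fragment count scaled by transcript length and library size) in LysM0 to LysM3. It was at 45.5, 41.6, 59.2 and 59.3 FPKM in K2KO0 to K2KO3. The groups overlapped, at 58.7 ± 12.7 FPKM (SD, n = 4) in LysM and 51.4 ± 9.22 FPKM (SD, n = 4) in K2KO. The log2 fold change was -0.18 with a 95% confidence interval of -0.57 to 0.21 (limma adjusted p = 0.460, exact two-sided permutation p = 0.429, where the smallest p that 4 against 4 allows is 0.0286). The value covers the whole gene, and the part of Klf2 that Cre removes is not given in the sources used here, so it may hold reads of undeleted transcript. The table's Klf2 level did not separate the genotypes, and every direction below refers to the libraries labelled K2KO. Whether the 8 libraries came from separate mice is stated by the study's methods and not by the columns, so the p-values measure the spread between these libraries.

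The cells carried macrophage transcripts. Cd68, a lysosomal glycoprotein of macrophages, averaged 1807 FPKM, Csf1r, the M-CSF receptor, 524.8 FPKM, and Adgre1, which encodes F4/80, 436.2 FPKM. Of 8 tested macrophage markers 2 were called, 25.0% of them against 18.4% of all tested genes, a call being a limma adjusted p under 0.05 together with a log2 fold change beyond 0.26 in either direction. Mertk, an efferocytosis receptor, was higher (log2 fold change 0.36) and Lyz2, the gene that carries Cre in both groups, was lower (-0.49) in the libraries labelled K2KO. Once log2 values were corrected for GC content and length, their log2 fold changes were 0.29 and -0.45 and neither was called. Summed over the list, these markers ran from 3927 to 4142 FPKM in LysM and from 3683 to 3826 FPKM in K2KO, so the groups did not overlap. As a share of all FPKM in a library they did, at 0.727 to 0.814% in LysM and 0.760 to 0.833% in K2KO. Of 7 tested neutrophil markers 1 was called, Camp, an antimicrobial peptide of granules, with a log2 fold change of -1.14 (-0.95 and still called after the same correction). The neutrophil sums overlapped, at 185.8 to 315.0 FPKM in LysM and 175.1 to 306.3 FPKM in K2KO, with S100a9 the most abundant at 129.2 FPKM and the defining marker Ly6g at 0.211 FPKM. Of 3 megakaryocyte markers 1 was called, the platelet chemokine Ppbp, with a log2 fold change of 1.07, which after that correction was 1.01 and not called. Pf4 was the most abundant of them at 282.0 FPKM, where the median of the 3 was 3.17 FPKM, so their sums are mostly Pf4. Megakaryocyte sums ran from 144.4 to 354.2 FPKM in LysM and from 168.0 to 366.5 FPKM in K2KO. The 5 fibroblast markers summed to 0.163 to 1.31 FPKM in LysM and 0.530 to 3.23 FPKM in K2KO, with Dcn the most abundant at 0.481 FPKM, and none passed the filter on low values. No marker of T cells, dendritic cells or mast cells passed it either, and their lists summed to at most 1.62 FPKM in any library. Of the erythroid list only Epor was tested and of the B cell list only Cd79b, at 1.59 and 2.47 FPKM, and neither was called, with log2 fold changes of -0.42 and 0.42 (limma adjusted p = 0.0670 and 0.146). The part of these cell types in the values below was not tested.

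The carriers covered a wide range of levels. By mean over the 8 libraries, 3 of the 43 were at 100 FPKM or more, 13 between 10 and 100 FPKM, 19 between 1 and 10 FPKM, and 8 under 1 FPKM, the filter below which no test was run. Slc25a3, the carrier that brings phosphate into the matrix, was the most abundant at 309.9 FPKM and made up 27.6 to 29.0% of the summed Slc25 FPKM of a library. It was followed by Slc25a5 (141.0 FPKM), the ADP/ATP exchanger ANT2, and Slc25a39 (140.7 FPKM), the importer of glutathione. The next were Slc25a11, Slc25a4, Slc25a1, Slc25a28 and Slc25a45, at 77.6, 64.9, 58.7, 42.7 and 38.4 FPKM. Members' FPKM summed to 1102 to 1160 in the LysM libraries and to 1045 to 1090 in the K2KO libraries, without overlap. As a share of all FPKM in a library the groups overlapped, at 0.200 to 0.233% in LysM and 0.217 to 0.235% in K2KO. In whole cultures, fewer cells of a type and less RNA per cell cannot be told apart.

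**Figure D1:**
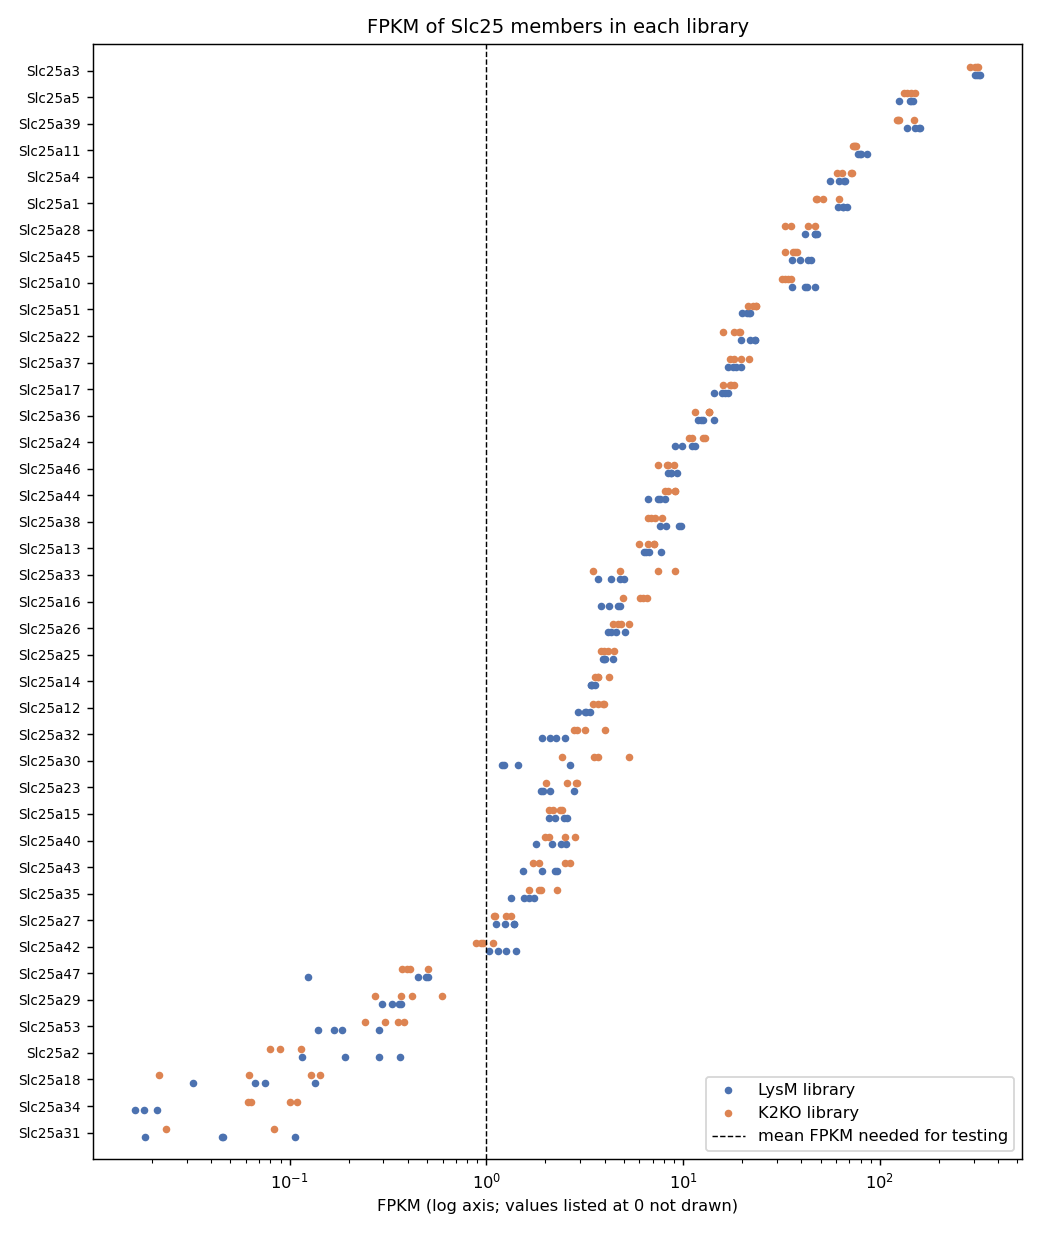
FPKM (log10 axis) of the Slc25 members reported by name in each of the 8 libraries, ordered by mean level, with LysM and K2KO points in separate colours, a dashed line at the filter of 1 FPKM, and values listed at 0 (all of those of Slc25a21) not drawn. Slc25a3 stands at the top near 310 FPKM, and the points of both genotypes lie close together for most members.

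The 8 members under the filter were Slc25a47, Slc25a29 (0.377 FPKM), Slc25a53 (0.258 FPKM), Slc25a2 (0.155 FPKM), Slc25a18 (0.0831 FPKM), Slc25a34 (0.0489 FPKM), Slc25a31 (0.0404 FPKM) and Slc25a21, which was listed at 0 in every library. The lowest members that passed were Slc25a42 (1.09 FPKM), a coenzyme A carrier, and Slc25a27 (1.24 FPKM), named after uncoupling proteins. The next below the filter was Slc25a47, at 0.406 FPKM. Slc25a2 shares its listed locus with overlapping genes, so its value is uncertain. Other members also overlap protein-coding genes on the opposite strand, among them Slc25a11, Slc25a18, Slc25a23, Slc25a26, Slc25a35 and Slc25a53. How reads were assigned at these overlaps was not examined.

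Carriers were called about as often as tested genes in general. Among the 35 tested members 6 were called, which is 17.1% of them. Of all 10920 tested genes, 18.4% were called. In the libraries labelled K2KO 3 of these members were higher and 3 were lower, 8.57% each way, where 9.84% of all tested genes were higher and 8.61% lower. At an adjusted p under 0.05 alone there were 8 members, against 20.9% of all tested genes. All 4 libraries of one genotype lay apart from all 4 of the other for 7 members, 20.0% of those tested, against 23.1% of all tested genes. The median log2 fold change was 0.03 over the 35 members, 20 positive and 15 negative, and 0.01 over all tested genes. On GRCm38 the called genes are Slc25a1 (ENSMUSG00000003528) at chr16:17925223-17928219 on the minus strand, Slc25a10 (ENSMUSG00000025792) at chr11:120491840-120499187 on the plus strand, Slc25a22 (ENSMUSG00000019082) at chr7:141429744-141437892 on the minus strand, Slc25a16 (ENSMUSG00000071253) at chr10:62920633-62946498 on the plus strand, Slc25a32 (ENSMUSG00000022299) at chr15:39091231-39112716 on the minus strand and Slc25a30 (ENSMUSG00000022003) at chr14:75760117-75787037 on the minus strand. The 6 calls depended on single libraries: 0 members were called without LysM2, LysM3, K2KO0 or K2KO2 (10 to 11 had an unadjusted limma p under 0.05), 1 without K2KO1, 2 without LysM1, 6 without LysM0 and 10 without K2KO3.

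**Figure D2:**
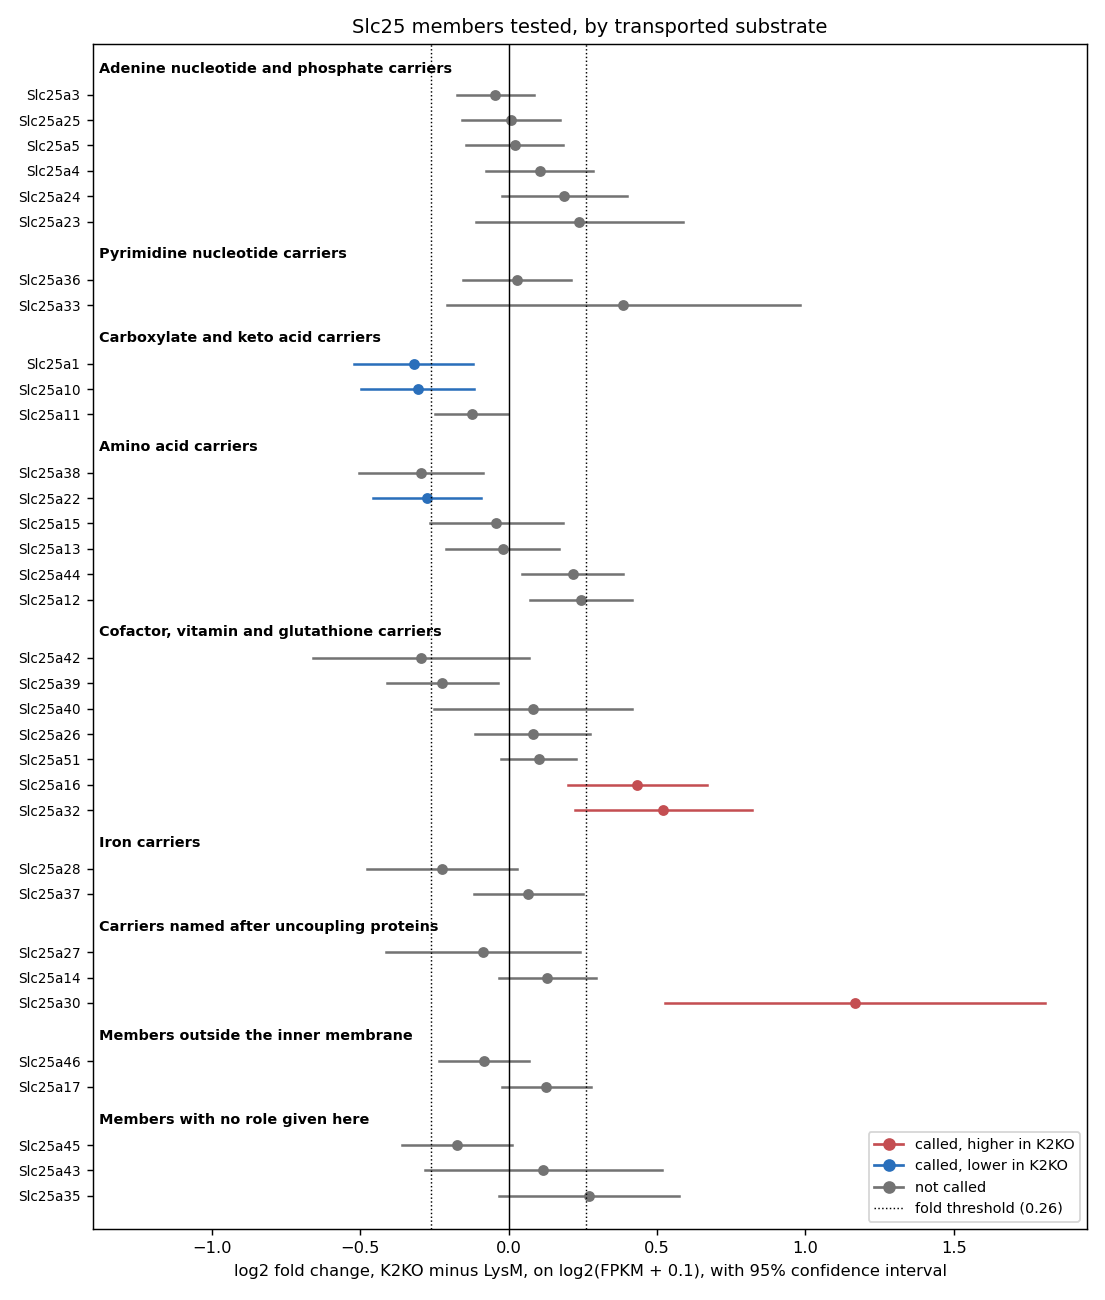
Log2 fold change (libraries labelled K2KO minus LysM, x axis) of the tested Slc25 members reported by name, grouped by transported substrate, with 95% confidence intervals and the called members marked. The 6 called members are Slc25a16, Slc25a30 and Slc25a32 to the right of 0 and Slc25a1, Slc25a10 and Slc25a22 to the left, and most intervals include 0.

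Promoter windows, the 250 bases before a transcript start in RefSeq on GRCm38.p6, are shown for 4 called members whose windows differ in the letters that KLF and Sp proteins bind. KLF proteins bind CACCC and GC-rich boxes such as CCGCCC. Capitals mark CACCC or CCGCCC read on either strand, and each window reads 5′ to 3′ on its gene's strand. Both strands were searched, and in these windows the motifs do not overlap one another. The windows lie at chr16:17928220-17928469 (minus strand, Slc25a1), chr11:120491587-120491836 (plus, Slc25a10), chr10:62920383-62920632 (plus, Slc25a16) and chr14:75787038-75787287 (minus, Slc25a30).
Slc25a1: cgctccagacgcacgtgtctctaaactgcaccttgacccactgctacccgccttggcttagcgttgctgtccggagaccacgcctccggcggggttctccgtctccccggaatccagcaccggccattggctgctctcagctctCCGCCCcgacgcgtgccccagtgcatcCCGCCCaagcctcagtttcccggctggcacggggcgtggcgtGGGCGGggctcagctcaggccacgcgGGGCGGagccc
Slc25a10: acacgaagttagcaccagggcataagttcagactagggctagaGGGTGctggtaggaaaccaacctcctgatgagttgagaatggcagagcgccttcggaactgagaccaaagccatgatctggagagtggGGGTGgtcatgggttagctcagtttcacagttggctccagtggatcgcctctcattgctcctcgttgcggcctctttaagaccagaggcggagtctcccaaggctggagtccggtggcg
Slc25a16: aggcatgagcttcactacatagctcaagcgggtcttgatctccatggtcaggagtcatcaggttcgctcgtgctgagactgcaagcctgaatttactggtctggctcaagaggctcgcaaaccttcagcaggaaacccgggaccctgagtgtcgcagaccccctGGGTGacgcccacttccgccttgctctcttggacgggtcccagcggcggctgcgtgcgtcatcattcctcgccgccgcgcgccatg
Slc25a30: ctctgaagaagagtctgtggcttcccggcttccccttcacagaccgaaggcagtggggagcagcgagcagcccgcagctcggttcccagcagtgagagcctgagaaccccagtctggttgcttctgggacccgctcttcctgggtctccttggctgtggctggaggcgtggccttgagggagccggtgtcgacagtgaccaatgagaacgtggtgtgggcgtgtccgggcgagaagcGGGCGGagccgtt

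The window of Slc25a1 held 4 GC boxes and no CACCC, that of Slc25a10 2 CACCC, that of Slc25a16 1 CACCC and that of Slc25a30 1 GC box. CACCC stood in 55.9% of 34 windows of tested members, 56.6% of 9916 windows of tested genes and 52.0% of all 32851 windows. GC boxes stood in 73.5%, 58.5% and 32.7%. The mitochondrial gene regulator NRF1's core TGCGCA stood in 5.88% of windows of tested members against 12.2% of those of tested genes, and the ERR half-site AAGGTCA in none of the 34, against 2.81%. A match is a description of the letters in this window. The 34 windows belong to 26 tested members, since some members have more than 1 window, and each window was counted. In all, 33 of the 43 members had a window.

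Nucleotide and phosphate carriers were the most abundant class. Of 6 tested members 0 were called by limma, beside 18.4% of all tested genes, and 0 had an unadjusted p under 0.05. Slc25a3 was at 324.1, 317.9, 310.4 and 306.0 FPKM in LysM0 to LysM3 and at 289.0, 311.2, 316.5 and 303.9 FPKM in K2KO0 to K2KO3. These ranges overlap, and the log2 fold change was -0.04 (95% confidence interval -0.17 to 0.09). Slc25a5 was at 148.0, 144.9, 142.1 and 125.2 FPKM in LysM0 to LysM3 and at 138.3, 151.5, 144.3 and 133.6 FPKM in K2KO0 to K2KO3, with a log2 fold change of 0.02 (interval -0.14 to 0.18). Near-identical copies of Slc25a5 are listed in the table, so its reads can be split. Slc25a4, the ADP/ATP exchanger ANT1, had a log2 fold change of 0.11 (interval -0.07 to 0.29). The calcium-regulated ATP-Mg/phosphate carriers Slc25a23, Slc25a24 and Slc25a25 had log2 fold changes of 0.24, 0.19 and 0.01. Both pyrimidine nucleotide carriers missed the threshold, adjusted and unadjusted, Slc25a36 at 12.9 FPKM with a log2 fold change of 0.03, and Slc25a33, which was at 4.32, 5.02, 3.70 and 4.77 FPKM in LysM0 to LysM3 and at 4.79, 3.49, 7.46 and 9.15 FPKM in K2KO0 to K2KO3. Slc25a33 varied more among the K2KO libraries than between the groups, with a log2 fold change of 0.39 (limma adjusted p = 0.307).

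Carboxylate carriers, which pass citric acid cycle intermediates, were lower in the libraries labelled K2KO for 2 of 3 tested members. Of all tested genes 8.61% were lower, and of those in the bin of GC content that holds both called members 23.0% were. Slc25a1 exports citrate, the carbon source of cytosolic fatty acid and sterol synthesis. Slc25a1 was at 65.4, 67.8, 61.6 and 65.4 FPKM in LysM0 to LysM3 and at 51.4, 48.2, 47.6 and 62.4 FPKM in K2KO0 to K2KO3. The groups overlapped because K2KO3 lay above LysM2. The means were 65.0 ± 2.56 and 52.4 ± 6.87 FPKM (SD, n = 4), and the log2 fold change was -0.32 (SE 0.09, limma adjusted p = 0.0356). Slc25a10, the dicarboxylate carrier, exchanges malate and succinate for phosphate. It was at 41.6, 35.7, 42.6 and 47.0 FPKM in LysM0 to LysM3 and at 34.3, 33.0, 31.9 and 35.4 FPKM in K2KO0 to K2KO3. Every K2KO library lay below every LysM library, although K2KO3 and LysM1 nearly met, and the log2 fold change was -0.31 (SE 0.08, limma adjusted p = 0.0349). Its antisense transcript Gm11788 was listed at 0.0855 FPKM. Slc25a11, the 2-oxoglutarate/malate carrier, was at 79.0, 86.5, 80.6 and 77.8 FPKM in LysM0 to LysM3 and at 73.6, 75.5, 72.9 and 75.0 FPKM in K2KO0 to K2KO3. The 4 K2KO values lay below all 4 LysM values, yet the log2 fold change of -0.12 did not pass the test (limma adjusted p = 0.131). Under quantile normalization and after a correction for GC content and length none of the 3 carboxylate carriers was called, and under upper quartile scaling 1 was, Slc25a1.

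Amino acid carriers gave 1 call among 6 tested members, 16.7% of them against 18.4% of all tested genes. Slc25a22, a glutamate carrier, was at 19.7, 23.1, 23.2 and 21.8 FPKM in LysM0 to LysM3 and at 19.2, 15.9, 18.1 and 19.4 FPKM in K2KO0 to K2KO3. All K2KO libraries lay below the LysM libraries, by a narrow margin at LysM0. The log2 fold change was -0.27 (SE 0.08, limma adjusted p = 0.0433). Among the called members Slc25a22 lost its call under the most settings, 15 of 20, among them quantile normalization, upper quartile scaling, a filter at 0.1 FPKM, no intensity trend and the replicate number as a block. Slc25a38, the glycine carrier of heme synthesis, had a log2 fold change of -0.29 and just missed the threshold (limma adjusted p = 0.0518). Slc25a12 and Slc25a13, the aspartate/glutamate carriers of the malate-aspartate shuttle, had log2 fold changes of 0.24 and -0.02. All K2KO libraries lay above the LysM libraries for Slc25a12 (limma adjusted p = 0.0498), under the fold threshold. Slc25a15, the ornithine carrier, and Slc25a44, a carrier of branched-chain amino acids, had log2 fold changes of -0.04 and 0.22 and were not called.

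Carriers of cofactors, vitamins and glutathione gave 2 calls among 8 tested members, both higher in the libraries labelled K2KO, where 9.84% of all tested genes were higher. In the bins of GC content that hold the called Slc25a16 and Slc25a32, 19.7% and 25.0% of genes were higher. Slc25a16, linked to coenzyme A in the matrix, was at 4.66, 4.80, 4.21 and 3.83 FPKM in LysM0 to LysM3 and at 6.54, 6.24, 6.08 and 4.96 FPKM in K2KO0 to K2KO3. The groups did not overlap, and the log2 fold change was 0.43 (SE 0.10, limma adjusted p = 0.0241). Slc25a32, which carries folate and is linked to flavin cofactors, was at 2.52, 2.26, 2.10 and 1.92 FPKM in LysM0 to LysM3 and at 3.19, 2.78, 4.03 and 2.90 FPKM in K2KO0 to K2KO3. Again every K2KO library lay above every LysM library, with a log2 fold change of 0.52 (SE 0.13, limma adjusted p = 0.0282). Under quantile normalization the log2 fold change of Slc25a32 was 0.41, and it was not called. Neither Slc25a16 nor Slc25a32 was called with the correction for GC content and length alone, or without LysM2, LysM3, K2KO0 or K2KO2. Slc25a39 was at 157.6, 160.3, 137.2 and 150.5 FPKM in LysM0 to LysM3 and at 122.1, 123.3, 125.6 and 148.9 FPKM in K2KO0 to K2KO3. K2KO3 stood among the LysM libraries, and the log2 fold change of -0.22 did not pass (limma adjusted p = 0.0838). Slc25a51, the NAD carrier, Slc25a26, the carrier of S-adenosylmethionine, and Slc25a40, a relative of Slc25a39, were at 22, 4.68 and 2.29 FPKM, with log2 fold changes of 0.10, 0.08 and 0.08, and were not called. Slc25a42, which lies 2.13 Mb from Klf2 on chromosome 8, had a log2 fold change of -0.30 (limma adjusted p = 0.206).

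Slc25a30, a carrier named after uncoupling proteins, had the largest fold change of the 35 tested members. It was at 2.68, 1.24, 1.20 and 1.45 FPKM in LysM0 to LysM3 and at 3.71, 5.31, 3.52 and 2.44 FPKM in K2KO0 to K2KO3. The groups overlapped at one point, LysM0 lying above K2KO3, and the means were 1.64 ± 0.701 and 3.75 ± 1.19 FPKM (SD, n = 4). The log2 fold change was 1.17 (SE 0.28, limma adjusted p = 0.0250). The related Slc25a14 and Slc25a27 were at 3.63 and 1.24 FPKM, with log2 fold changes of 0.13 and -0.09, and were not called. The iron carriers Slc25a28 (mitoferrin 2) and Slc25a37 (mitoferrin 1) had log2 fold changes of -0.22 and 0.07 and 0 of 2 were called (0 at an unadjusted limma p under 0.05). Slc25a17 of peroxisomes and Slc25a46 of the outer mitochondrial membrane had log2 fold changes of 0.13 and -0.08, and 0 of these 2 were called (likewise 0 unadjusted). Of 3 tested members for which no role is given here 0 were called (0 at an unadjusted limma p under 0.05): Slc25a45, at 38.4 FPKM, had a log2 fold change of -0.17, Slc25a43 of 0.12 and Slc25a35 of 0.27.

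**Figure D3:**
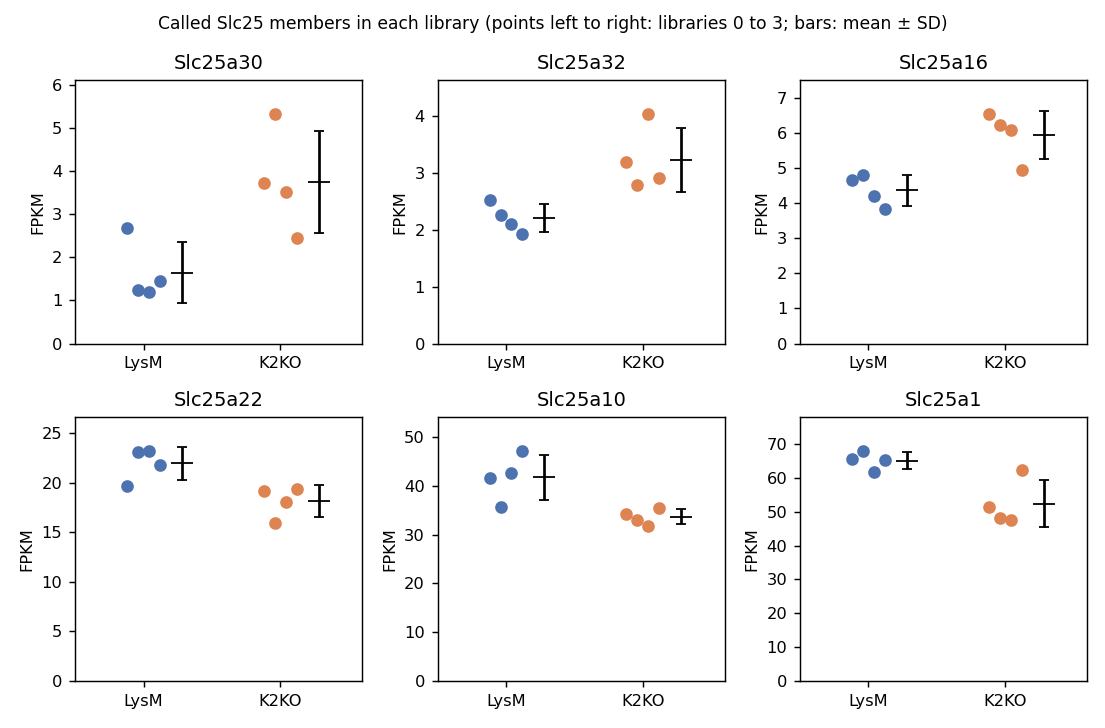
FPKM of the 6 called Slc25 members in each library, in panels with separate linear axes, with points for libraries 0 to 3 from left to right and bars for the mean ± SD of LysM and of K2KO. Slc25a16 and Slc25a32 are apart and higher in the libraries labelled K2KO, Slc25a10 and Slc25a22 apart and lower, and in Slc25a30 and Slc25a1 a single library of one group crosses into the other.

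Log2 fold changes ran with base composition and, less closely, with transcript length. Across the 35 tested members the Spearman correlation of transcript GC content with log2 fold change was -0.54, and across 10899 tested genes it was -0.40. For transcript length it was 0.18 across the members and 0.36 across the tested genes. These are descriptions across genes that share the 8 libraries. The correction below fits GC content and length together, so it does not separate them. The called members that were lower were GC-rich, at 59.1% for Slc25a1, 60.6% for Slc25a10 and 57.6% for Slc25a22. Those that were higher were GC-poor, at 43.4% for Slc25a16, 41.2% for Slc25a32 and 45.4% for Slc25a30. Tested genes were divided by GC content into 10 bins of 1089 or 1090. In the bin with the most GC, which holds Slc25a1 and Slc25a10, 23.0% of genes were lower in the libraries labelled K2KO, and in the next bin, with Slc25a22, 14.7% were. In the bin with the least GC, which holds Slc25a32, 25.0% were higher, and in the next ones, with Slc25a16 and Slc25a30, 19.7% and 16.4% were. After each gene's log2 values were corrected for GC content and transcript length, 9.06% of all tested genes and 2 members were called. These were Slc25a30, with a log2 fold change of 1.08, and Slc25a46, which moved from -0.08 to -0.28. The corrected log2 fold changes of the other called members were -0.11 for Slc25a1, -0.10 for Slc25a10, -0.25 for Slc25a22, 0.32 for Slc25a16 and 0.30 for Slc25a32, and none of these was called. With the replicate number as a block beside the correction, Slc25a16 was called and Slc25a30 was not (limma adjusted p = 0.0415 and 0.0644). The part of library preparation in these relations was not tested.

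**Figure D4:**
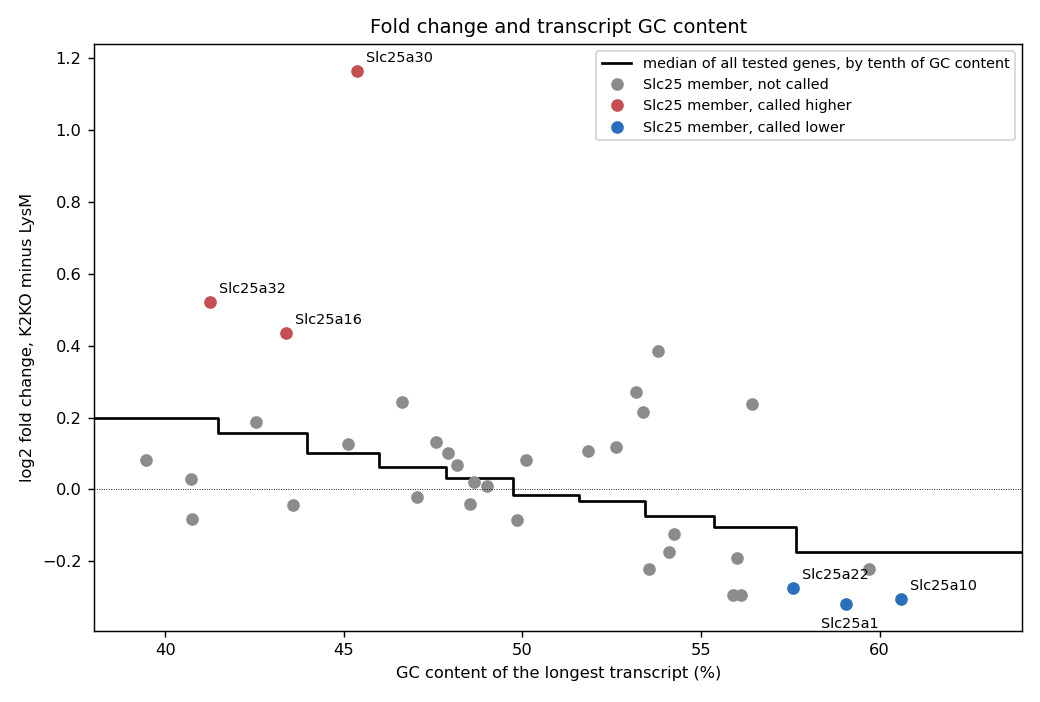
Transcript GC content (percent, x axis) against log2 fold change (libraries labelled K2KO minus LysM, y axis) of the 35 tested Slc25 members as points, with the called members named and a stepped line for the median of all tested genes in each GC bin. The members run from GC-poor and higher at the left to GC-rich and lower at the right, with a Spearman correlation of -0.54.

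Related mitochondrial genes were read beside the carriers, from lists chosen with the family. Of the 3 tested carrier-family genes under other names 0 were called by limma, with 2 at an unadjusted p under 0.05. The most abundant, Ucp2, an uncoupling protein of immune cells, was at 402.4, 393.0, 382.7 and 376.0 FPKM in LysM0 to LysM3 and at 313.1, 307.8, 343.3 and 362.4 FPKM in K2KO0 to K2KO3. The groups lay apart, but its log2 fold change of -0.23 (limma adjusted p = 0.0466) was under the fold threshold. Among 17 tested entries of the machinery that imports carriers, 4 were lower and 0 higher, beside 8.61% of all tested genes lower and 9.84% higher. They were Timm13, a chaperone of the intermembrane space (log2 fold change -0.37), Tomm6 of the outer membrane complex (-0.36), which was also the most abundant at 275.8 FPKM, and Timm10b, a chaperone subunit, listed under a pair of overlapping identifiers (-0.62 and -0.85). The split of reads between these identifiers makes both values uncertain. Quantile normalization left 3 import entries lower and 0 higher, no filter left 2 lower, and 2 were called without LysM1, LysM3, K2KO0, K2KO1 or K2KO2. After the correction for GC content and length Timm13 and Tomm6 were not called, at log2 fold changes of -0.15 and -0.17, while both Timm10b entries were, at -0.66 and -0.88. Tomm5, not called without the correction (-0.32, limma adjusted p = 0.0502), was called with it (-0.29, limma adjusted p = 0.0454), so 3 entries were lower and 0 higher.

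The ATP synthase, which uses the phosphate and ADP that carriers bring in, had 6 of 16 tested genes lower and 0 higher, where 8.61% of all tested genes were lower and 9.84% higher. They were Atp5e (log2 fold change -0.45), Atp5j2 (-0.42), Atpif1 (-0.41), which encodes the inhibitor of the enzyme, Atp5d (-0.38), Atp5g1 (-0.31) and Atp5h (-0.29). Atp5e was the most abundant at 493.5 FPKM, and the catalytic subunit Atp5b had a log2 fold change of 0.21 and was not called. The median log2 fold change of the list was -0.25. These calls depended on the filter, on scaling and on single libraries. With no filter limma called 0 of 17 ATP synthase genes (12 at an unadjusted p under 0.05). Under quantile normalization 0 ATP synthase genes were lower and 1 was higher, with a median of -0.10, and 0 were called without LysM1, LysM3, K2KO0, K2KO1 or K2KO2, 2 without LysM2 and 9, all lower, without K2KO3. Lower calls numbered 5 after the GC and length correction (median -0.17) and under upper quartile scaling, and 7 with the replicate block. After the correction Atp5d and Atpif1 were not called (-0.16 and -0.23). Atp5f1, not called without the correction (-0.14), was called with it (-0.31, limma adjusted p = 0.0289). Other transporters and channels gave 1 higher and 3 lower of 23 tested: Mpc1, a subunit of the mitochondrial pyruvate carrier (0.74), was higher, and Ccdc109b, the uniporter subunit MCUb (-0.55), Tspo, an outer membrane protein (-0.41), and Slc8b1, the sodium/calcium exchanger (-0.28), were lower. Tspo was the most abundant of them at 300.5 FPKM. Mpc2, the other subunit of the pyruvate carrier, was at 40.5 FPKM, where Mpc1 was at 4.37 FPKM. The log2 fold change of Mpc2 was -0.25 (limma adjusted p = 0.0256), under the fold threshold, with the groups apart. Lower calls in this list fell to 1 without LysM1, LysM3 or K2KO0 and with no filter, and numbered 5 without K2KO3. After the GC and length correction Tspo and Slc8b1 were not called, at log2 fold changes of -0.17 and -0.18. Mpc2 was then called lower, at -0.39 (limma adjusted p = 0.0265), so the list had 1 gene higher and 2 lower.

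Enzymes that make or use the carried substrates gave 6 higher and 4 lower of 38 tested, beside the 9.84% and 8.61% of all tested genes. Without 1 library these counts ran from 2 to 7 higher and from 2 to 4 lower: 4 and 2 without LysM1, 4 and 3 without LysM2, 2 and 2 without LysM3, 3 and 3 without K2KO0 or K2KO2, 3 and 2 without K2KO1, and 7 and 4 without K2KO3. With no filter they were 2 and 1. After the GC and length correction they were 4 and 3, and with the replicate block beside that correction 4 and 1. Gclm and Gclc, the subunits of glutamate-cysteine ligase in glutathione synthesis, had log2 fold changes of 0.88 and 0.62. Gss, the next enzyme of that pathway, was lower at -0.30 (its name was chosen after its value was seen), and the glutathione carrier Slc25a39 was not called. Alas1 and Fech, the first and last enzymes of heme synthesis, had log2 fold changes of 0.71 and 0.46 (Fech was not called after the GC and length correction, at 0.30), where Slc25a38 and Slc25a37 were not called. The transcript of Nnt, which encodes the transhydrogenase of the inner membrane, had a log2 fold change of 0.69. Whether both groups carried the same Nnt allele, and whether it makes a working enzyme in these mice, was not tested. Ckb, brain-type creatine kinase and the most abundant of the list at 428.3 FPKM, had a log2 fold change of -0.63. Of 12 tested regulators of mitochondrial genes 1 was called, Gabpa, a subunit of nuclear respiratory factor GABP (log2 fold change 0.49), and the most abundant was Esrra at 24.6 FPKM. Of the mitochondrially encoded protein genes 2 were listed, neither was tested, and so no value bears on them.

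**Figure D5:**
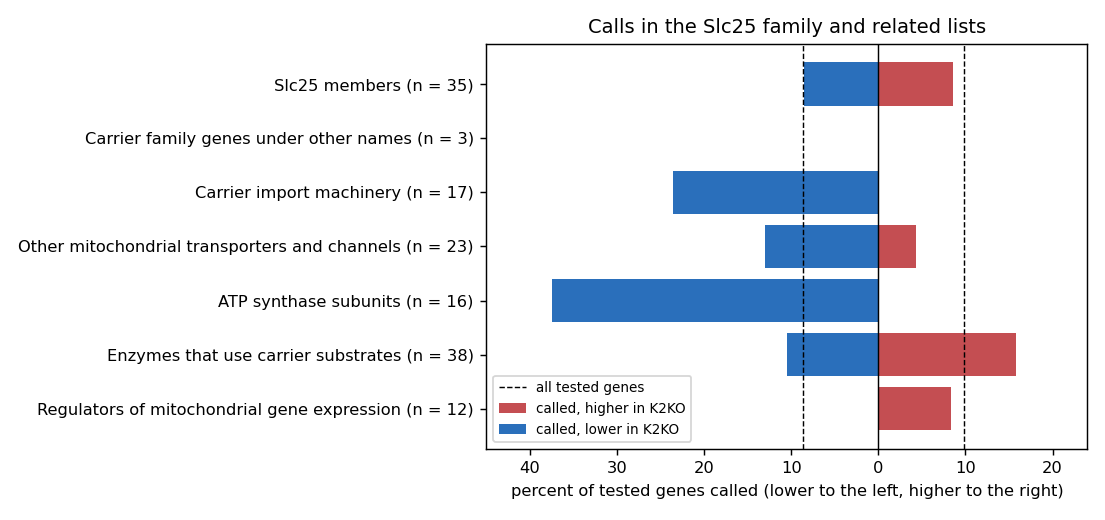
Percent of tested genes called lower (left) and higher (right) in the libraries labelled K2KO, in the Slc25 members and 6 related lists, with dashed lines at the percentages of all tested genes. The Slc25 members, at 8.57% each way, sit near the lines, while ATP synthase and import machinery entries were called only to the left, which for the ATP synthase turned to 1 higher and 0 lower under quantile normalization.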

How the data were processed

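RNA of BMDMs was sequenced from 4 LysM and 4 K2KO mice. The authors deposited 1 table of FPKM per library, computed with Cufflinks on mm10. The methods name TopHat2 for alignment and the submitters' processing notes STAR, with no versions, and the methods and the labels name different RNA kits. FPKM carry no read counts, so depth is unknown, and steps among low values gave only a relative depth of 0.914 to 1.44 against LysM0, which did not differ detectably by genotype (exact permutation p = 0.486). Count models were not used.

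FPKM of genes with a mean of at least 1 were compared on the log2(FPKM + 0.1) scale, which understates the change of low genes, with limma 3.58.1 in R 4.3.3 (moderated by eBayes, allowing a trend with intensity), without covariates and with Benjamini-Hochberg adjustment over all 10920 tested genes. Calls needed an adjusted p under 0.05 together with a log2 fold change beyond 0.26 in either direction. Of the listed genes, 23645 matched GENCODE M21 for position, GC content and length. The procedure was run on simulated data with independent noise for each gene and planted changes of 1 on the log2 scale. That simulation held no shift shared by a library and no change near the fold threshold, so it cannot check calls there. Alternatives changed the pseudocount, filter, scaling, GC correction, replicate block and libraries. Members, lists and named genes (Klf2, called members, the most abundant, those with the largest change and, of other lists, at most 6 called genes and the most abundant) were chosen with earlier results of these data known. Other members and Atp5b, Gss, Mpc2, Tomm5 and the markers were named with their values seen. The values of 1 tested member, which stays in the counts, are not reported here.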

Additional observations from a re-analysis of the deposited data

Results flagged for a closer look

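A single library stood apart from the rest of its group in 2 of 30 groups of 4 values examined, where chance gives about 1 in 20. Slc25a30 in LysM0 was at 2.68 FPKM, with the other LysM libraries at 1.20 to 1.45 FPKM. Slc25a39 in K2KO3 was at 148.9 FPKM, with the other K2KO libraries at 122.1 to 125.6 FPKM.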

How the results depend on the processing

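Against 2014 genes and 6 members called, the counts were 483 and 1 with no filter (Slc25a34, at 0.0489 FPKM, and none of the 6), 989 and 2 after the GC and length correction, 923 and 2 with the replicate block and that correction together (Slc25a16 among them in place of Slc25a30), and 110 and 1 at an absolute log2 fold change over 1. Quantile normalization called 3 members, Slc25a16, Slc25a30 and Slc25a38, so 2 of the 6 kept their calls. Upper quartile scaling called 5 members, 4 higher and 1 lower, and put 64.1% of called genes on the higher side against 53.3% without it. Other pseudocounts left 6 members called, a filter at 0.1 FPKM 5, no intensity trend 5 and protein-coding genes alone 7. Leaving out 1 library gave 543 to 2863 genes, 0 to 10 members and a median log2 fold change of the members of 0.0016 to 0.077, the highest without K2KO3. Each called member was called in 1 to 3 of the 8 fits that left out a library. The log2 fold change of Klf2 turned to 0.048 after the GC and length correction, with or without the replicate block. That of Slc25a11 turned to 0.0047 under quantile normalization and 0.0050 after the correction, with or without the block, and that of Slc25a3 to 0.149 under quantile normalization. With 1 library left out, that of Slc25a5 ran from -0.032 (without LysM3; -0.011 without K2KO1) to 0.049, and it was 0.172 under quantile normalization. None of these 4 genes was called under any setting run, and the cause was not tested. With the replicate number as a block, 2057 genes and 6 members were called, with Slc25a38 called and Slc25a22 not (limma adjusted p = 0.0774; 0.0433 without the block). Same-numbered libraries correlated at -0.0702, 0.0203, 0.0729 and -0.0570 in their deviations from the group means, so the numbers were not taken as pairs. Depth is unknown in FPKM, so counting error at low levels, as for Slc25a30, could not be given.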
